A study of Mus musculus with 8 samples.

Results

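The miR-29 family comprised 3 of the 750 distinct miRNA assays that were run by real-time PCR on CD34+/CD105- cells of the mouse renal artery. The members were chosen by name, as the assays for mmu-miR-29a, mmu-miR-29b and mmu-miR-29c, and assays for the opposite (#) strand were left out of the membership. The cells were sorted by flow cytometry from collagenase-digested renal artery, from 4 sham-operated mice and from 4 mice with renal ischemia/reperfusion, in which both renal arteries were clamped. The comparison asked which miRNAs of these cells differ after ischemia/reperfusion. Strain, age, ischemia time and reperfusion time were not given in the sources used here, and each sample was numbered as a separate mouse. CD34 marks endothelial and progenitor cells and CD105 marks endothelial and stromal cells, but neither was measured on the cards. The endothelial miRNAs miR-126-3p and miR-126-5p were detected in 8 of 8 samples. Markers of other cell types were detected too and are given below.

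MicroRNAs lower the stability and translation of messenger RNAs that pair with their seed, which is bases 2 to 8 of the mature strand. The miR-29 family is known for targets that encode extracellular matrix, among them fibrillar collagens, elastin and fibrillin, and is called antifibrotic for that reason. TGF-beta signalling lowers the family in fibrosis of the kidney, heart and other organs. In arterial walls the same targets have made the family a subject of work on aneurysm. No target messenger RNA and no matrix protein was measured in these samples.

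The 3 mature strands are shown because the members differ by so few bases that their assays measure near-identical RNAs. The assay names give no arm, and the members were taken as the -3p strands because # marks the opposite strand. Each of the 3 then had an entry in the RefSeq table of GRCm38.p6. Capitals mark the seed, and the strands are written 5′ to 3′.
miR-29a: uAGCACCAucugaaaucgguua
miR-29c: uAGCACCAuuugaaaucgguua
miR-29b: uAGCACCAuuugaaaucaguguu
The seed was the same in the 3 strands, and of 1679 mature miRNA names in that table these 3 were the ones that carry it. Counting from 1 at the 5′ end, miR-29a and miR-29c differed at 1 of 22 positions, C10U with the base of miR-29a first. Against miR-29b, miR-29a differed at 4 of the 22 shared positions, C10U, G18A, U21G and A22U, and miR-29b was 23 bases long. How far the miR-29a and miR-29c assays tell these RNAs apart was not given in the sources used here and was not tested.

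The family is encoded by 4 hairpins in 2 clusters. On the minus strand of chromosome 6, Mir29a (chr6:31062660-31062747) and Mir29b-1 (chr6:31063023-31063093) were 275 bases apart, and no other gene of the RefSeq table overlapped them. On the plus strand of chromosome 1, Mir29b-2 (chr1:195037040-195037120) and Mir29c (chr1:195037547-195037634) were 426 bases apart. Both lay within the long non-coding RNA gene A330023F24Rik (chr1:195017399-195037908). The mature miR-29b strand is thus the same from either cluster, and its assay does not tell which hairpin it came from.

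The readout was the threshold cycle (Ct) of each well, where fewer cycles mean more RNA, and an assay counted as detected below Ct 35. The number of miRNAs detected per sample was 75 to 163 in sham mice and 82 to 98 after ischemia/reperfusion. The Ct of the deposited reference on the card that holds the 3 members spanned 17.9 to 22.4 in sham mice and 20.5 to 22.4 after ischemia/reperfusion. Sham mouse 2 had the fewest detected miRNAs and the highest reference Ct of all 8 samples. Levels are given below as minus delta Ct, the reference Ct minus the Ct of the assay, on a log2 scale on which higher means more RNA. In these bulk samples, fewer cells of a type and less RNA per cell cannot be told apart.

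miR-29a was detected in all 8 mice, and its level did not differ between groups by more than the spread between mice. The Ct of miR-29a was 28.4, 30.7, 28.9 and 27.4 in sham mice 1 to 4. After ischemia/reperfusion the Ct of miR-29a was 30.9, 31.3, 28.9 and 31.2 in mice 1 to 4. The highest Ct in sham mice, that of mouse 2, lay among the ischemia/reperfusion values, and ischemia/reperfusion mouse 3 lay among the sham values, so the groups overlapped. Against the deposited reference, the minus delta Ct of miR-29a was -7.78, -8.24, -9.93 and -9.43 in sham mice 1 to 4. The corresponding values after ischemia/reperfusion were -9.91, -8.93, -8.41 and -9.57. The lowest value of all was that of sham mouse 3 and the highest that of sham mouse 1, so the sham range enclosed every ischemia/reperfusion mouse. The sham mean was -8.85 ± 1.00 and the ischemia/reperfusion mean -9.20 ± 0.668 (SD, n = 4 each).

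The log2 difference of miR-29a, ischemia/reperfusion minus sham, was -0.36 ± 0.68 (SE; limma adjusted p = 0.743). This corresponded to a fold of 0.781, with a 95% interval of 0.268 to 2.28. The exact two-sided permutation p over the 8 samples was 0.543, where 4 against 4 mice cannot go below 0.0286. Of the 4 ischemia/reperfusion mice, 3 lay below the sham mean. Single mice moved this value: it was -0.0015 without sham mouse 1, -0.15 without sham mouse 2, -0.72 without sham mouse 3 and -0.12 without ischemia/reperfusion mouse 1.

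miR-29c, the member that differs from miR-29a by 1 base, was also detected in all 8 mice and had a lower mean after ischemia/reperfusion, again without passing the test. The Ct of miR-29c was 28.9, 31.9, 28.5 and 28.2 in sham mice 1 to 4. After ischemia/reperfusion it was 32.6, 30.9, 30.3 and 33.5. As for miR-29a, sham mouse 2 had the highest sham Ct, and the groups overlapped through that mouse. The minus delta Ct of miR-29c in sham mice 1 to 4 was -8.22, -9.44, -9.46 and -10.26. In the ischemia/reperfusion mice it was -11.56, -8.49, -9.81 and -11.80. Ischemia/reperfusion mice 1 and 4 were below every sham mouse, and mouse 2 was above all sham mice but mouse 1.

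The mean minus delta Ct of miR-29c was -9.34 ± 0.845 for the sham group and -10.41 ± 1.56 for the ischemia/reperfusion group (SD, n = 4 each). The log2 difference was -1.07 ± 0.87 (SE; limma adjusted p = 0.552), a fold of 0.476 with a 95% interval of 0.122 to 1.87. The exact permutation p was 0.257. The difference was -0.61 without ischemia/reperfusion mouse 4, -0.69 without ischemia/reperfusion mouse 1 and -1.71 without ischemia/reperfusion mouse 2, and it was -1.10 without sham mouse 2.

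**Figure D1:**
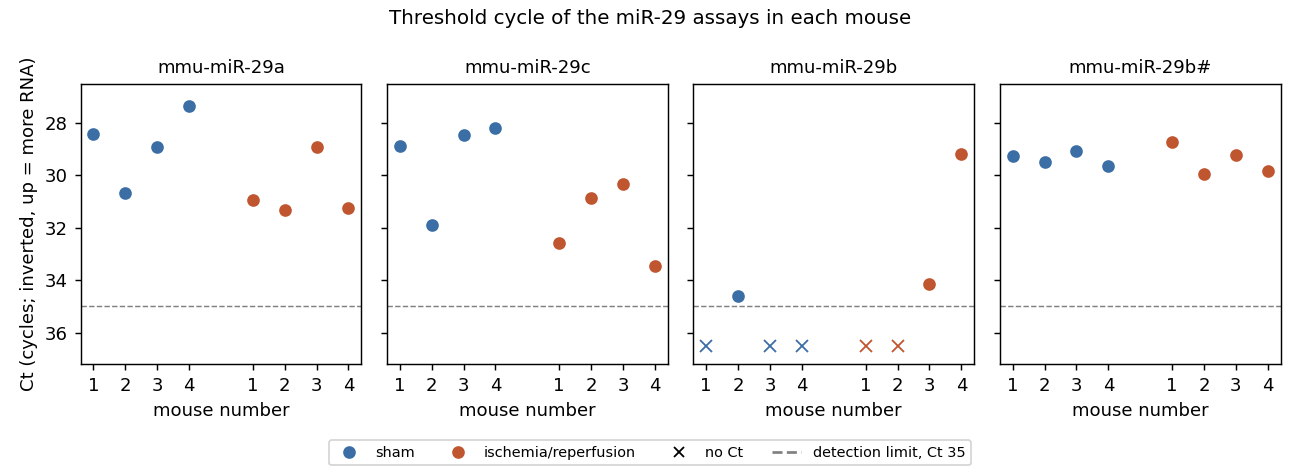
Threshold cycle (Ct, cycles, axis inverted so that up means more RNA) of miR-29a, miR-29c, miR-29b and the opposite-strand assay mmu-miR-29b# in each mouse, blue for sham and orange for ischemia/reperfusion. Crosses mark wells without a Ct and the dashed line the detection limit of Ct 35; miR-29b has a Ct in 3 of 8 mice, and mmu-miR-29b# stays between 28.7 and 29.9 in all.

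The size of both differences depended on the reference. Their sign stayed negative with each reference, but none passed the test, so no direction was established. With no reference subtracted, the mean Ct after ischemia/reperfusion exceeded that of sham by 1.75 cycles for miR-29a and by 2.46 cycles for miR-29c, each with an exact permutation p of 0.0857 (0.0857 after Benjamini-Hochberg adjustment over these 2 assays). The deposited reference itself came up 1.39 cycles later in the ischemia/reperfusion mice, at a mean Ct of 21.4 ± 0.804 against 20.0 ± 1.97 in the sham mice (SD, n = 4 each). With the average of the 54 miRNAs found in every mouse as reference, the log2 difference was -0.054 ± 0.60 for miR-29a and -0.77 ± 0.72 for miR-29c (SE). With control assays as reference it was -0.18 ± 0.96 and -0.90 ± 1.17 (SE). The limma adjusted p over the alternatives lay between 0.251 and 0.998 for miR-29a and between 0.168 and 0.791 for miR-29c.

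**Figure D2:**
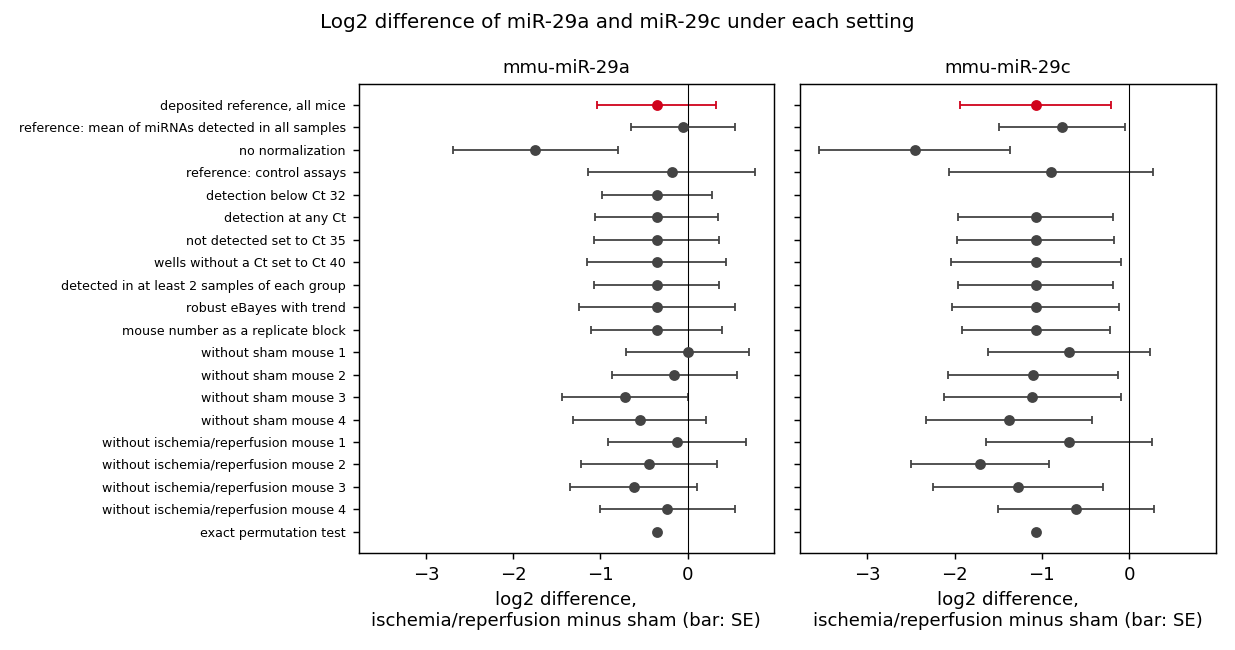
Log2 difference (ischemia/reperfusion minus sham, horizontal axis) of miR-29a and miR-29c under each way of processing the values, with the standard error as bar where the limma fit gave one; red is the deposited reference with all mice. All points lie at or below 0, from -1.75 to -0.0015 for miR-29a and from -2.46 to -0.61 for miR-29c; miR-29c has no point for detection below Ct 32, where it was left with 2 ischemia/reperfusion mice.

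Both members sat near the centre of the miRNAs tested. Of the 72 miRNAs detected in at least 3 mice of each group, 49 (68.1%) had a negative log2 difference, and the median was -0.80. In order from the lowest difference, miR-29c was number 30 and miR-29a number 44. miR-29a was 0.44 above the median of the tested miRNAs and miR-29c 0.27 below it, each less than its standard error. After Benjamini-Hochberg adjustment of the limma p, 0 of 72 (0%) passed 0.05, with 10 at an unadjusted p under 0.05, none of them a member. The exact permutation test with the same adjustment gave 0, but it is no second check on the limma result. With 4 against 4 mice its p cannot go below 0.0286. After adjustment over 72, a few miRNAs at that floor stay above 0.05. The groups did not overlap for 5 of the 72 (6.94%), none of them a member. The SD within groups was 0.852 for miR-29a and 1.25 for miR-29c, beside a median of 1.27 over the tested miRNAs.

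In order of Ct among the miRNAs detected in the same sample, miR-29a stood at 43.3% to 65.3% of the list in sham mice and at 41.8% to 72.0% after ischemia/reperfusion, counted from the lowest Ct. miR-29c stood at 47.2% to 80.0% in sham mice and at 58.2% to 83.0% after ischemia/reperfusion. Both were thus wells of middle to late amplification in every mouse. This order uses no reference, but it also holds the efficiency of each assay and is not an order of abundance.

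**Figure D3:**
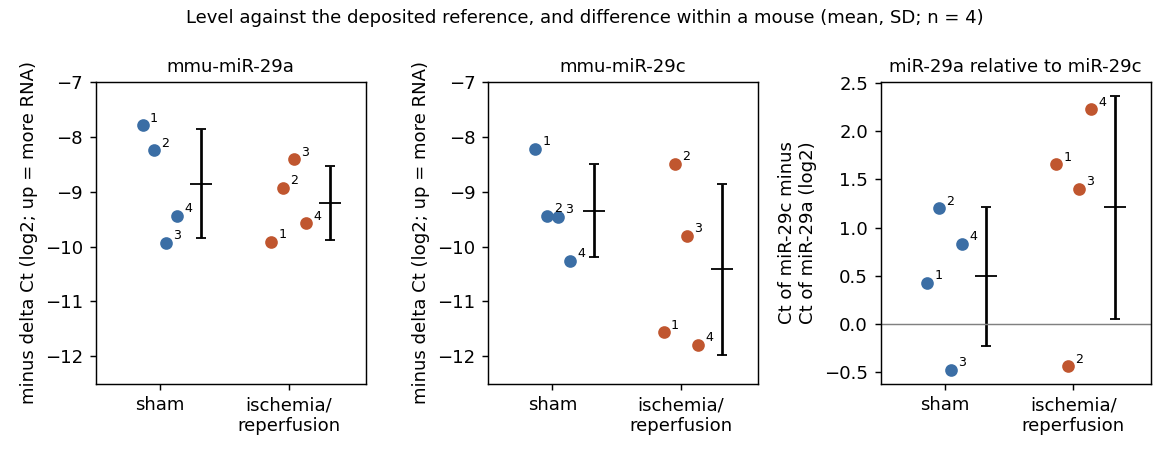
Minus delta Ct (log2, up means more RNA) of miR-29a and miR-29c, and the difference between them within each mouse (Ct of miR-29c minus Ct of miR-29a), with mouse numbers beside the points and the mean and SD of 4 mice as black bars. The groups overlap in all 3 panels, and ischemia/reperfusion mice 1 and 4 have the lowest miR-29c values, -11.56 and -11.80.

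The difference between miR-29a and miR-29c within a mouse needs no reference, since both assays were on the same card. The Ct of miR-29c minus that of miR-29a was 0.43, 1.20, -0.47 and 0.83 in sham mice 1 to 4. After ischemia/reperfusion it was 1.66, -0.44, 1.40 and 2.23. In ischemia/reperfusion mice 1, 3 and 4 miR-29c lagged miR-29a by more than in any sham mouse, while mouse 2 lay near the lowest sham value. The sham mean was 0.50 ± 0.719 and the ischemia/reperfusion mean 1.21 ± 1.15 (SD, n = 4 each). The groups differed by 0.71 ± 0.68 (SE), with an exact two-sided permutation p of 0.314, also 0.314 after Benjamini-Hochberg adjustment over the 3 within-mouse comparisons made, which included miR-29b at a fill of Ct 35 and the opposite-strand assay below. Leaving out each mouse gave 0.38 to 1.26, the latter without ischemia/reperfusion mouse 2 (exact permutation p = 0.0571; the fewest mice that remained in a group were 3).

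miR-29b, the member made from both clusters, was detected in 3 of 8 mice and was outside the test across miRNAs. It had a Ct in 1 of 4 sham mice, at 34.6 in mouse 2, and in 2 of 4 ischemia/reperfusion mice, at 34.1 in mouse 3 and 29.2 in mouse 4 (two-sided Fisher's exact p = 1 for detection). The values of sham mouse 2 and ischemia/reperfusion mouse 3 were within 1 cycle of the detection limit, and below Ct 32 the assay was detected in 1 mouse. Against miR-29a in the same mouse, miR-29b was lower by 3.92 on the log2 scale in sham mouse 2 and by 5.20 in ischemia/reperfusion mouse 3. In ischemia/reperfusion mouse 4 the order was turned, at -2.06, so miR-29b crossed the threshold earlier than miR-29a there. The well of ischemia/reperfusion mouse 4 was the only one of the 8 in which miR-29b had a Ct within the range of the other members over all mice, 27.4 to 33.5. In that mouse itself miR-29a was at 31.2 and miR-29c at 33.5, both later than miR-29b.

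With Ct 35 in the wells where miR-29b was not detected, its mean minus delta Ct was -14.89 ± 2.14 for the sham group and -11.93 ± 3.00 for the ischemia/reperfusion group (SD, n = 4 each). The log2 difference was 2.96, with an exact two-sided permutation p of 0.171, and it was 1.49 without ischemia/reperfusion mouse 4 (exact permutation p = 0.314) and 3.87 without sham mouse 2 (exact permutation p = 0.0857). Without a reference, a setting chosen after seeing the data, it was 1.57 (exact permutation p = 0.429); by construction, filled wells differ between mice by the reference alone. The within-mouse difference between miR-29a and miR-29b at this fill was not in the first plan. It is 35 minus the Ct of miR-29a in 5 of the 8 mice, so no comparison was read from it.

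In the authors' deposited table the fold is 0.781 for miR-29a and 0.476 for miR-29c, the same as those computed here. The fold of miR-29b in the authors' deposited table is 8.95e-05. The deposited delta Ct of miR-29b in sham mouse 4 was -17.94, which equals 0 minus the reference Ct of that mouse, while the Ct table has no Ct for this well. It entered the sham mean as a very abundant miR-29b, and with it the mean deposited delta Ct of the sham mice was -2.89 over 2 wells. Leaving the well out gave a fold of 3.03 from 1 sham and 2 ischemia/reperfusion wells, which turns the direction and has no replicate check in the sham group.

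Of the 5 other assays named for the family, all for the opposite (#) strand, mmu-miR-29b# was detected in 8 of 8 mice, while hsa-miR-29a#, hsa-miR-29b-2#, rno-miR-29b-1# and rno-miR-29c# had no Ct in any mouse. In sham mice 1 to 4 the Ct of mmu-miR-29b# was 29.3, 29.5, 29.1 and 29.6. After ischemia/reperfusion it was 28.7, 29.9, 29.2 and 29.8. Its range of 1.23 cycles over the 8 mice was the smallest of the 54 miRNAs found in every mouse, beside 3.93 for miR-29a and 5.27 for miR-29c. The reference of its card spanned 4.21 cycles over the same mice, from 18.8 to 23.0. The log2 difference of mmu-miR-29b# was 0.96 ± 0.90 (SE; limma adjusted p = 0.587) against the deposited reference and -0.065 without a reference. Within a mouse, the Ct of miR-29a minus that of mmu-miR-29b#, with no reference, averaged -0.51 ± 1.45 in the sham group and 1.17 ± 1.05 in the ischemia/reperfusion group (SD, n = 4 each; exact permutation p = 0.114, and 0.171 after adjustment over the 3 comparisons). The 2 assays were on different cards, so differences between cards do not cancel here. Since mmu-miR-29b# was nearly flat, this comparison mostly repeats that of the Ct of miR-29a and adds little to it. Which of the hairpins Mir29b-1 and Mir29b-2 mmu-miR-29b# was designed for was not settled, and the rno-miR-29b-1# and hsa-miR-29b-2# assays, named for each of them, had no Ct.

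**Figure D4:**
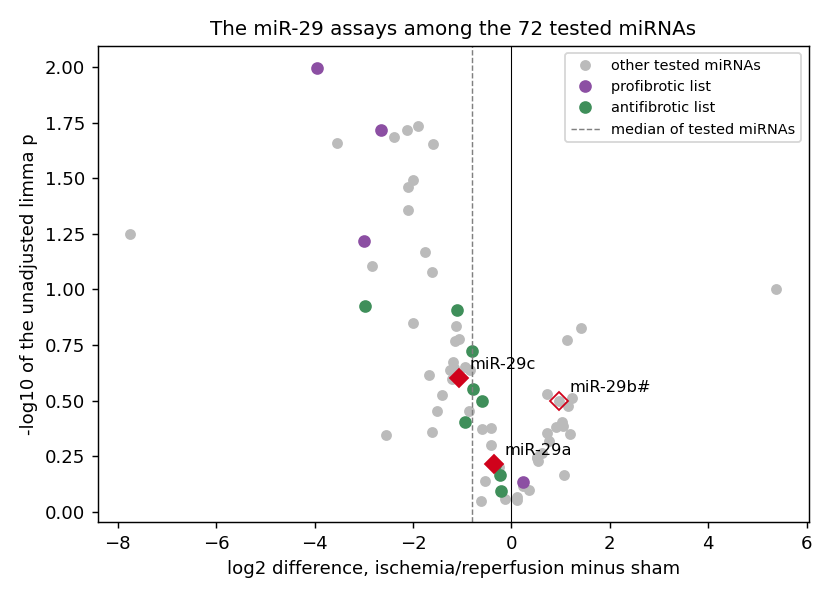
Log2 difference (ischemia/reperfusion minus sham, horizontal axis) against -log10 of the unadjusted limma p (vertical axis) for the 72 tested miRNAs, with miR-29a and miR-29c as filled red diamonds, mmu-miR-29b# as an open one, and tested members of the lists of profibrotic (purple) and other antifibrotic (green) miRNAs. The dashed line is the median of -0.80; miR-29a at -0.36 and miR-29c at -1.07 lie on either side of it.

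Other miRNAs linked to fibrosis in the literature were read from the same fit, 10 described as profibrotic and 18 described as antifibrotic beside miR-29. Of these 28, 20 were detected in at least 1 mouse and 13 could be tested. Of the 13, 12 had lower means after ischemia/reperfusion and 1 had a higher mean, and 0 passed the limma threshold, beside 68.1% lower and 0% passing over all tested miRNAs. Their median log2 difference was -0.81, beside -0.80 over all tested miRNAs. The 2 lists differed, with medians of -2.82 for the 4 profibrotic and -0.79 for the 9 antifibrotic miRNAs tested. This difference between the lists was not tested.

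Among the profibrotic miRNAs, 4 of 10 were tested, 3 with lower means and 1 with a higher mean. The median of -2.82 rests on these 4. miR-214, which lies beside miR-199a in the genome and is abundant in mesenchymal cells, was at -3.95 ± 1.17 by the mmu-miR-214 assay (SE of the log2 difference; 3 sham and 4 ischemia/reperfusion values). The hsa-miR-214 assay on the other card, outside the list, was at -0.86 ± 0.87 (SE; limma adjusted p = 0.605). miR-21, which is induced in injured kidney, was at -2.99 ± 1.33 (SE; 3 sham and 3 ischemia/reperfusion values). miR-199a-3p was at -2.65 ± 0.92 and miR-155, a miRNA of activated leukocytes, at 0.23 ± 0.66 (SE). The lowest limma adjusted p among them was 0.228. miR-214 and miR-199a-3p are also fibroblast markers in the list used below.

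Among the antifibrotic miRNAs, 9 of 18 were tested and all 9 had lower means, beside 68.1% lower over all tested miRNAs. Their median was -0.79, beside -0.80 over all tested miRNAs. miR-26b was at -2.98 ± 1.70 and miR-26a at -1.11 ± 0.65, while miR-30a was at -0.22 ± 0.86 and miR-30c at -0.24 ± 0.57 (SE of the log2 difference). The value of miR-26b rests on 4 sham and 3 ischemia/reperfusion mice. miR-29a lay near the upper end of this range and miR-29c near miR-26a. The miR-200 family, which holds epithelial cells in their state, had no member with a Ct below 35 in any mouse.

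Across the 8 samples, the miRNAs whose minus delta Ct was most like that of miR-29a were miR-26a (Pearson r = 0.77), miR-92a (0.77), rno-miR-632 (0.70), miR-30c (0.67) and miR-29c (0.67), out of 53 others detected in all mice. These r are a description over 8 samples that share a reference per card. Over the 53 miRNAs the median r was 0.25 against the deposited reference and 0.71 without a reference. Without a reference, miR-26a ranked 2, miR-30c 3, miR-92a 5, miR-29c 11 and rno-miR-632 39. The near-identical miR-29c was thus among the 5 most similar with the deposited reference but not without one.

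Markers of other cell types that a renal artery digest could hold were read beside these values, as sums of 2 to the power of minus delta Ct over each list. Fibroblast and mesenchymal markers, of which 3 of 4 were detected in some mouse and miR-199a-5p in none, summed to 0.0119 to 0.0476 in sham mice and 0.000725 to 0.0232 after ischemia/reperfusion. Endothelial markers, 2 of 2 detected, summed to 0.0377 to 0.113 and 0.0181 to 0.0380. Leukocyte markers, 5 of 6 detected, summed to 0.00687 to 0.0332 and 0.00485 to 0.0587. Epithelial and tubule markers, 4 of 9 detected, summed to 0 to 0.364 and 0 to 0.0923, and miR-200a, miR-200b, miR-200c, miR-141 and miR-429 were not detected in any mouse. The detected ones were miR-192, miR-194, miR-203 and miR-204, none of them in all mice. The highest sham sum of this list, 0.364, was above the highest endothelial sum, 0.113. Smooth muscle markers, 2 of 2 detected, summed to 0.000309 to 0.00289 and 0.000159 to 0.000684. Erythroid and neural markers were not detected in any mouse, and of the 4 striated muscle markers on the cards 2 were detected. The part of these cell types in the miR-29 values was not tested.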

How the data were processed

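The authors deposited Ct values per well, read on a 7900HT instrument with a FAM label from RNA extracted by mirVana kit, per the labels' protocols. The authors also deposited delta Ct values on a log2 scale, which equalled Ct minus 1 reference value per sample and card, and a fold (ratio) of ischemia/reperfusion over sham, per the file headers. The sources used here do not give the reference RNA, the card type or the software. The Ct table held 757 distinct assays, 750 for miRNAs on 2 cards and 7 controls, and repeated wells were averaged. In 13 wells, 1 of them of miR-29b, a delta Ct stood without a Ct, and these were taken as missing.

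Detection meant a Ct below 35, and miRNAs detected in at least 3 mice of each group (72) were tested. Values not detected were missing. Groups were compared with limma 3.58.1 in R 4.3.3 (lmFit, eBayes, two-sided, Benjamini-Hochberg at 0.05). Exact permutation tests over 70 assignments were used for single values. The limma fit was tried on simulated data whose known changes were all larger than those of miR-29a and miR-29c against the deposited reference. That trial does not tell how often changes of their size would be found. Precision rests on the spread between 4 mice per group, since wells per value were not given. Alternatives changed the reference, detection limit, fill, filter, moderation, block and mice; those not in the first plan are described as chosen later. When a mouse was left out, the same 72 miRNAs were fitted. The miR-29 members and the miRNA lists were chosen with earlier results of these data known. Named miRNAs were the members, other assays of the family, the 5 most like miR-29a by Pearson r, and the 2 lowest and 2 highest of each fibrosis list.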

Additional observations from a re-analysis of the deposited data

Results flagged for a closer look

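The Ct of miR-29a in ischemia/reperfusion mouse 3, at 28.9, stood apart from the other 3 mice of its group. Its gap to the nearest of them was 0.841 of the group's range, above Dixon's critical value for 4 samples at the 95% level. On the minus delta Ct scale the largest gap in that group was 0.347 of the range. Of the 20 sets of 4 values checked, 1 passed, and chance alone gives about 1 in 20.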

How the results depend on the processing

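The log2 differences of miR-29a and miR-29c stayed negative, and that of miR-29b at a fill of Ct 35 stayed positive, under each alternative that gave a value, and none passed 0.05. miR-29b was detected in 3 of 8 mice, and with a reference its filled wells differ between mice by the reference alone. Its steady sign was therefore not read as a result. Leaving out each mouse gave -0.72 to -0.0015 for miR-29a, -1.71 to -0.61 for miR-29c and 1.49 to 3.87 for miR-29b. Fills of Ct 40 and Ct 32 gave 4.21 and 2.09 for miR-29b. With control assays as reference miR-29b was at 3.14, and with the average of the 54 miRNAs found in every mouse, chosen after seeing the data, at 3.26. Below Ct 32, miR-29b was detected in 1 mouse and miR-29c could not be tested. The count of miRNAs past the threshold, 0, became 1 at any Ct and 1 with Ct 35 for values not detected (hsa-miR-421 in both), and 0 to 1 when each mouse was left out (miR-1896 without sham mouse 1, miR-199a-3p without sham mouse 2); these names were picked after their values were seen, and the cause was not tested. Without normalization the median of the 13 fibrosis-linked miRNAs moved to -2.18, beside -1.93 over all 72. Of the 5 miRNAs most like miR-29a, 3 remained without normalization and 3 with the mean as reference. Mouse numbers name separate mice. Same-numbered mice correlated at -0.38, -0.15, 0.02 and -0.25 in their deviations from the group means, and differently numbered mice at -0.26 to 0.55. Whether same-numbered mice shared a run cannot be told from these values. With mouse number as a replicate block, the difference was -0.36 for miR-29a (limma adjusted p = 0.774), -1.07 for miR-29c (limma adjusted p = 0.499) and 2.96 for miR-29b at a fill of Ct 35 (limma adjusted p = 0.514), and 0 miRNAs passed. With 4 mice per group the interval of miR-29a spans folds of 0.268 to 2.28, so changes within it were not excluded here. The interval lies around the estimate and is not a limit of detection, so a fold outside it need not have been detectable.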
